A study of Mus musculus with 15 samples.

Results

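The neurofilament and axonal cytoskeleton genes are 9 of the 54532 genes counted, chosen by name for their role in neurons: the filament subunits Nefl, Nefm, Nefh and Ina, the microtubule genes Map2, Mapt and Tubb3, and the growth-related genes Stmn2 and Gap43. This choice, and that of the other lists below, was made with earlier results of these data known. The shares of all genes given beside counts are therefore a background and not a test. The 9 genes were followed in poly-A RNA from the ipsilateral basal ganglia of 15 wild-type mice, with 5 mice in each of 3 groups and 1 library per mouse, collected on day 3 after surgery. Sham mice had control surgery and were gavaged with distilled water. ICH mice had an intracerebral haemorrhage and the same water. NYKD mice had the haemorrhage and received Nao Yi Kang decoction, a herbal preparation, by gavage at 5.79 g/kg once daily for 3 days. The labels state neither the strain, age and sex of the mice nor how the haemorrhage was made. There was no sham group given NYKD.

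Neurofilaments are the intermediate filaments of mature neurons, most abundant in large myelinated axons, where they set the calibre of the axon. Nefl, the light subunit, is needed for assembly, Nefm and Nefh are the medium and heavy subunits with long phosphorylated tails, and Ina, alpha-internexin, assembles with them in central neurons. Microtubules form the tracks for axonal transport. Tubb3 is the beta-tubulin of neurons, Mapt (tau) binds microtubules mainly in axons, and Map2 binds them in dendrites and cell bodies. Stmn2 (SCG10) regulates microtubule dynamics in growing axons and Gap43 is a membrane protein of growth cones and presynaptic endings.

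All 9 genes passed the filter on low counts and were among the 18052 genes tested. Their coordinates below are in mm10. Nefl (ENSMUSG00000022055) lies on chr14:68083863-68089095 on the plus strand and Nefm (ENSMUSG00000022054) on chr14:68082590-68124846 on the minus strand. An annotated long Nefm transcript extends past Nefl, so that exons of these genes share 1108 bases on opposite strands. Whether the counting used strand was not given in the sources used here, and reads from the shared bases cannot be told apart, which makes the separate levels of Nefl and Nefm uncertain. Nefh (ENSMUSG00000020396) lies on chr11:4938754-4948064 (minus) and Ina (ENSMUSG00000034336) on chr19:47014698-47025327 (plus), where it shares 456 exonic bases with Nt5c2 on the other strand. Mapt (ENSMUSG00000018411) lies on chr11:104231390-104332090, Map2 (ENSMUSG00000015222) on chr1:66175273-66442583, Tubb3 (ENSMUSG00000062380) on chr8:123411424-123422015 and Stmn2 (ENSMUSG00000027500) on chr3:8509360-8561606, all plus. Gap43 (ENSMUSG00000047261) lies on chr16:42248442-42340651 (minus).

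Sequence just upstream of the first annotated start was held for 3 of the 9 genes, and is shown for these: a filament subunit, the neuronal tubulin and a microtubule-binding protein. No test compared Map2 with Ina or Tubb3. The sequences are from RefSeq (GRCm38.p6), plus strand, 5′ to 3′, and capitals mark each GC box match, GGGCGG or its reverse complement CCGCCC.
Map2 (chr1:66175079-66175272): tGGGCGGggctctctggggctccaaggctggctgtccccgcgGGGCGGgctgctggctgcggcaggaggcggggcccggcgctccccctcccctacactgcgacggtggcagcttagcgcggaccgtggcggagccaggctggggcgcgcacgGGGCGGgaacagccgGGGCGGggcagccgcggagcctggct
Tubb3 (chr8:123411303-123411423): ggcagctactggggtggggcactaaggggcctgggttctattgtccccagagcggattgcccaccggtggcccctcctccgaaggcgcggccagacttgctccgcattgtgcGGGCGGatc
Ina (chr19:47014431-47014680): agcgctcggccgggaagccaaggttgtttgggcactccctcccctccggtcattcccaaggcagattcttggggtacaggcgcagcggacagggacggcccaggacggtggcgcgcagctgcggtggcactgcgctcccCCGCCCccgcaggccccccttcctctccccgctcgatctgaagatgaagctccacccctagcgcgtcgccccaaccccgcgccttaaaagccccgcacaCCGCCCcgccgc
The Map2 window of 194 bases was 79.4% G and C, above 98.5% of promoter windows of that length, whose median was 51.5%. Tubb3 was at 67.8% over 121 bases and Ina at 70.8% over 250 bases. The Map2 window held 4 GC boxes, the Ina window 2 and the Tubb3 window 1. Searched on both strands, GGGCGG occurred in 23.6% of the 32851 promoter windows at the Map2 length, in 12.9% at the Tubb3 length and in 32.7% at the Ina length. The letters CCAAT and TATAAA were not in any of the 3 windows, which is the usual state at these lengths. At the Map2, Tubb3 and Ina lengths CCAAT occurred in 27.5%, 16.3% and 33.8% of all windows. TATAAA occurred in 8.9%, 6.07% and 12.4%. CANNTG, the E-box, occurred once, in the Ina window, and in 58.0%, 42.1% and 66.2% of all windows at the same lengths.

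Library totals ran from 13539203 to 19909140 counts, and the 9 genes together took 0.142% to 0.359% of a library. The lowest count of any of them was 403, for Nefh in ICH replicate 4, so counting error was small beside the spread between mice. Pan-neuronal markers were above 0 in every library. So were the striatal markers of the labelled basal ganglia, but their mean level was 6.28 (log2 CPM) in sham replicate 1 against 8.65 to 8.95 in the other sham libraries, and was 3.64 in NYKD replicate 5. For the 9 genes, sham replicate 1 was the highest library, with a mean of 8.53 (log2 CPM), and ICH replicate 4 the lowest, at 6.70. Values without one or both of these libraries are therefore given beside the results, a choice made after seeing the data.

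Levels are given as CPM, the count divided by the TMM-scaled library size. Per kilobase of annotated exon, sham levels were highest for Tubb3, at 221 ± 46.8 CPM per kb (SD, n = 5), followed by Gap43 at 156 ± 30.2 and Nefl at 98.5 ± 21.5. Ina at 62.0 ± 11.9, Map2 at 57.8 ± 16.3 and Mapt at 55.9 ± 4.01 CPM per kb came next, then Nefm at 36.3 ± 9.11, Stmn2 at 36.1 ± 11.8 and Nefh at 31.9 ± 15.7. Tubb3 lay above Gap43 in every sham library, at 159.7 against 151.1 CPM per kb in replicate 4 and 233.3 against 146.2 in replicate 5. Ina, Map2 and Mapt changed order between sham libraries, and so did Nefm, Stmn2 and Nefh. The order within each of these sets is therefore not resolved. In sham replicate 1 Map2, at 43.2, also lay below Nefm, at 46.7, Stmn2, at 56.6, and Nefh, at 57.4. The order also depends on the length used. Per kilobase of the longest transcript, Map2, which has 24 annotated transcripts, stood at 152 CPM per kb, above Nefl. By that length Mapt stood at 80.1 in sham, and Stmn2 (59.3) and Nefm (57.05) came close to Ina (62.0). In ICH libraries the means were 129.5 ± 42.0 CPM per kb for Gap43 and 115 ± 46.9 for Tubb3. Gap43 lay above Tubb3 in every ICH library, at 108.5 against 75.5 in replicate 4 and 104 against 101.3 in replicate 5. This pair was picked after its values were seen, and its ratio was not tested.

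**Figure D1:**
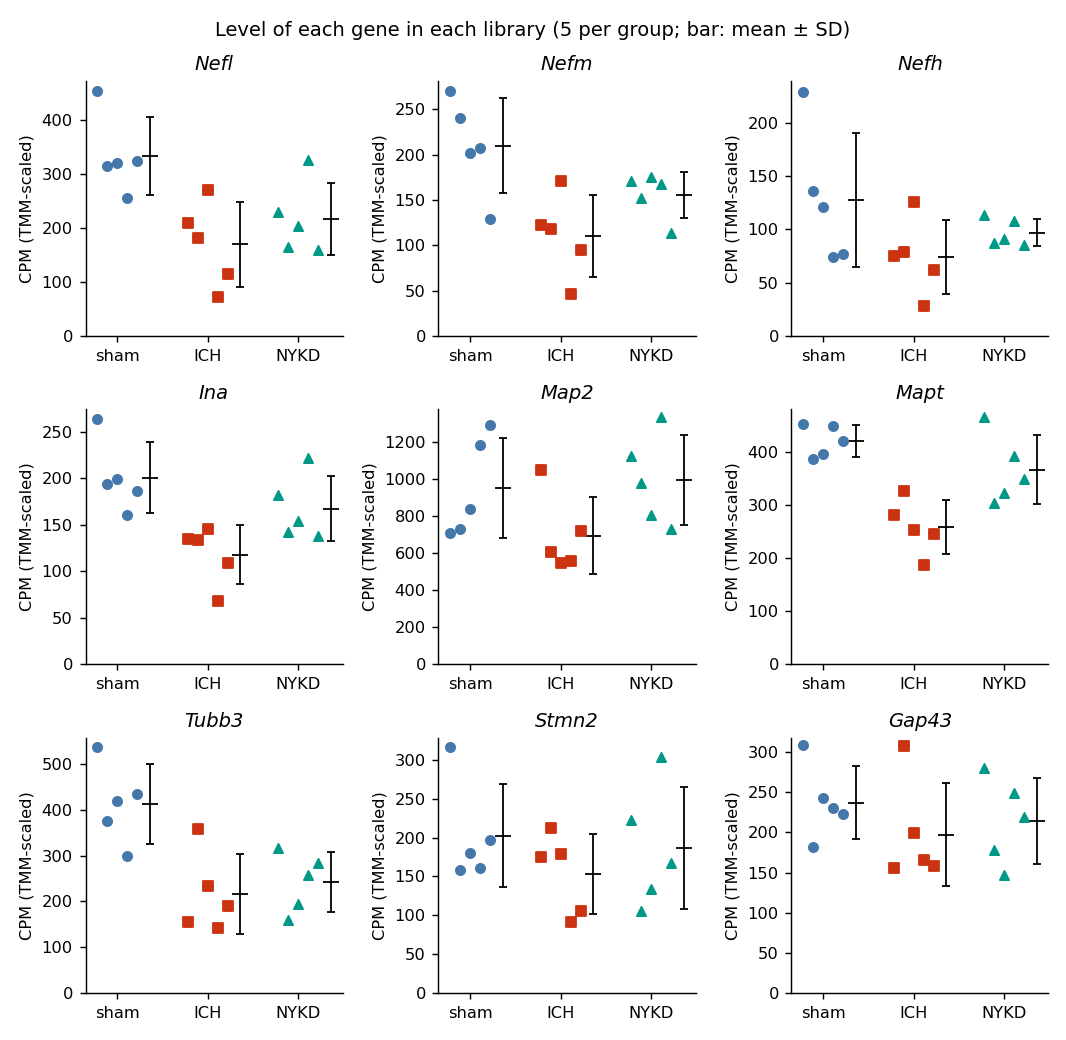
Level of each gene in each library, as TMM-scaled CPM on an axis from 0, with 5 points per group in replicate order and a bar for the mean ± SD. Mapt and Ina are the genes whose sham and ICH points do not overlap, and the Stmn2 and Gap43 groups overlap throughout.

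The comparison of ICH with sham asks how the haemorrhage changed these genes on day 3. Filament subunits Nefl, Nefm and Ina, axonal Mapt and neuronal Tubb3 fell, by 0.70 to 0.98 on the log2 scale. Nefh and Map2 had lower means without passing the test, and the growth-related genes Stmn2 and Gap43 were the least shifted. In all, 5 of the 9 genes were lowered and 0 raised at an adjusted p under 0.05 (edgeR quasi-likelihood test, adjusted over all genes), against 4.58% of all genes tested lowered, 12.4% raised and 17% called in either direction. At an unadjusted p under 0.05 there were 6, against 31.1% of all genes. The median log2 fold change of the 9 genes was -0.77, beside 0.05 for all genes tested, and 9 of 9 were below 0, as were 46% of all genes. In bulk tissue, fewer cells of a type and less RNA per cell cannot be told apart.

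Nefl, the light subunit, stood at 452, 314, 320.3, 254 and 324 CPM in sham replicates 1 to 5, at 209, 181, 271, 72.1 and 114 in the ICH replicates, and at 229.7, 165, 204, 325 and 159 in the NYKD replicates. ICH replicate 3 lay above the lowest sham library and ICH replicate 4 was the lowest of all. Nefl fell by 0.98 ± 0.29 (log2, SE; adjusted p = 0.0315), from a mean of 333 ± 72.5 to 169 ± 78.2 CPM (SD, n = 5). The call was lost when sham replicate 1 (adjusted p = 0.0728), sham replicate 2 (0.0504), sham replicate 3 (0.0593) or ICH replicate 5 (0.0750) was left out. It was also lost with no count filter (0.0702) and with only these groups in the fit (0.0552). Without both sham replicate 1 and ICH replicate 4 the log2 fold change was -0.64 (adjusted p = 0.0871).

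Nefm, the medium subunit, was counted at 269.9, 241, 202, 208 and 129 CPM in sham, 122, 117, 171, 46.0 and 95.2 in ICH, and 171, 152, 175, 168 and 113 in NYKD. Sham replicate 5 overlapped the ICH range. Nefm fell by 0.93 ± 0.27 (adjusted p = 0.0252), a call lost without sham replicate 1 (0.0572), sham replicate 2 (0.0549) or ICH replicate 5 (0.0566), or with only these groups in the fit (0.0611). Without sham replicate 1 and ICH replicate 4 together the log2 change was -0.62 (0.0523).

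Nefh, the heavy subunit, varied widely among sham mice, at 229, 136, 121, 74.4 and 77.1 CPM, while ICH libraries were at 75.1, 79.0, 125.7, 28.5 and 62.4, and NYKD libraries at 114, 87.1, 90.6, 108 and 85.5. Sham replicate 1 was far above the others, and sham replicates 3, 4 and 5 lay inside the ICH range. The log2 change of -0.78 ± 0.33 did not pass (adjusted p = 0.122). It passed when ICH replicate 3 was left out (-1.06, adjusted p = 0.0479) and with limma-voom quality weights (0.0381), and was -0.25 (0.483) without sham replicate 1 and ICH replicate 4. A different call for Nefh and Nefl does not show that they changed differently: within a library the Nefh to Nefl ratio differed by 0.29 between groups (exact permutation test, two-sided, adjusted p = 0.476 over 18 tests).

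Ina, which co-assembles with the triplet, stood at 264, 194, 199, 160.3 and 186 CPM in sham, 135, 133, 146, 67.6 and 109 in ICH, and 182, 142, 154, 221 and 138 in NYKD. Every ICH library lay below every sham library. Ina fell by 0.77 ± 0.20 (adjusted p = 0.0149). The call was kept with each library left out in turn. Without sham replicate 1 and ICH replicate 4 it was kept at a smaller log2 change of -0.50 (adjusted p = 0.0469).

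Mapt (tau) had the smallest relative spread of the 9 genes in sham: 453, 386, 395, 448 and 422 CPM, against 281, 327, 253, 188 and 245 in ICH and 466, 305, 322, 392 and 349.9 in NYKD. Sham and ICH did not overlap for Mapt, as for Ina; these were the 2 of 9 genes with no overlap, against 3.25% of all genes tested with ICH wholly below sham and 8.03% with ICH wholly above. Mapt fell by 0.70 ± 0.16 (adjusted p = 0.00535), and passed under each of the 24 other settings, with log2 changes from -0.80 to -0.58.

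Tubb3, the neuronal beta-tubulin, was at 537, 375, 420.0, 298 and 436 CPM in sham, at 155, 359, 233, 141 and 189 in ICH and at 317, 159, 194, 259 and 285 in NYKD. ICH replicate 2 overlapped the sham range. Tubb3 fell by 0.94 ± 0.25 (adjusted p = 0.0170), kept with each single library left out (highest adjusted p = 0.0424) but not without sham replicate 1 and ICH replicate 4 together (-0.71, 0.0672).

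Map2, the dendritic microtubule-binding protein, spread widely in all groups: 710.1, 733, 837, 1184 and 1289 CPM in sham, 1048, 606, 545, 558 and 717 in ICH, and 1124, 976, 807, 1332 and 730.1 in NYKD. Its log2 change was -0.45 ± 0.23 (adjusted p = 0.195), with ICH replicate 1 well inside the sham range, and -0.47 (0.203) without sham replicate 1 and ICH replicate 4. The difference between Mapt and Map2 did not pass either: their ratio within a library changed by -0.27 (log2; two-sided exact permutation test, adjusted p = 0.541).

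Stmn2 and Gap43 overlapped between all groups. Stmn2 was at 317, 158, 179.6, 161 and 197 CPM in sham, 175, 212, 179, 91.6 and 106 in ICH, and 223, 106, 133, 304 and 167 in NYKD. Sham replicate 1 stood apart, and without it and ICH replicate 4 the log2 change moved from -0.41 ± 0.30 (adjusted p = 0.373) to -0.05. Gap43 was at 309, 182, 243, 230.2 and 223 CPM in sham, 156, 307, 199, 165 and 158 in ICH and 280.0, 178, 147, 249.5 and 219 in NYKD, with ICH replicate 2 far above the other ICH libraries and a log2 change of -0.27 ± 0.22 (adjusted p = 0.427). Without ICH replicate 2 the Gap43 change was -0.49 (0.101), and without sham replicate 1 and ICH replicate 4 it was -0.09 (0.818).

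**Figure D2:**
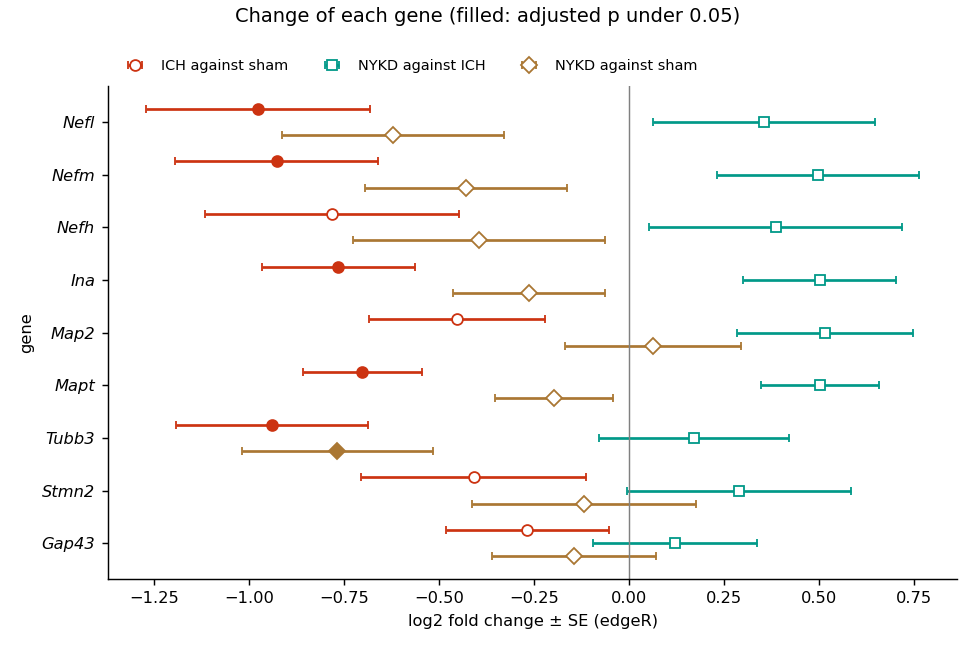
Log2 fold change ± SE of each gene in the 3 comparisons, filled where the adjusted p is under 0.05. In ICH against sham 5 symbols are filled and all 9 lie below 0; in NYKD against ICH all 9 lie above 0 and none is filled; in NYKD against sham Tubb3 is filled.

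NYKD against ICH asks whether the decoction altered the day-3 state. None of the 9 genes passed (0 called by edgeR), where 3.46% of all genes tested were called, 1.19% raised and 2.27% lowered. That background itself was unsteady: the 625 genes called became 0 without ICH replicate 5 or NYKD replicate 1, 3 or 5, and 1508 without ICH replicate 1. At an unadjusted p under 0.05 edgeR passed 3 of the 9 genes, Ina, Map2 and Mapt, against 23.2% of all genes. For 0 of 9 did the groups not overlap, against 2.55% of all genes with NYKD wholly higher and 5.25% wholly lower. DESeq2 called 1, Mapt (adjusted p = 0.0171), and limma-voom 0. All 9 fold changes were above 0, with a median of 0.39 beside -0.01 for all genes, of which 51.2% were below 0. Without ICH replicate 4 the median of the 9 genes was 0.19. The shift was not particular to them. Medians were 0.45 for motors of axonal transport, 0.42 for the membrane skeleton and 0.42 for pallidal markers. Astrocyte markers were at 0.39, microglial markers at 0.44 and pan-neuronal genes at 0.17. Striatal (-1.09) and neutrophil (-2.19) medians were below 0. The ICH libraries are shared with the first comparison, so a high or low ICH value moves both in opposite directions.

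By role, the filament subunits were higher in NYKD than ICH by 0.36 ± 0.29 for Nefl, 0.50 ± 0.27 for Nefm, 0.39 ± 0.33 for Nefh and 0.50 ± 0.20 for Ina (log2 ± SE, adjusted p = 0.494, 0.275, 0.516 and 0.145). Mapt differed by 0.50 ± 0.16 (adjusted p = 0.0737; range over the other settings 0.0171 to 0.159) and Map2 by 0.52 ± 0.23 (0.191). Tubb3 differed by 0.17 ± 0.25 (0.721), Stmn2 by 0.29 ± 0.30 (0.589) and Gap43 by 0.12 ± 0.22 (0.772). Omitting ICH replicate 4 gave 0.17 for Nefl, 0.31 for Nefm, 0.19 for Nefh and 0.36 for Ina. Mapt was then at 0.42 (adjusted p = 0.150), Map2 at 0.45, Tubb3 at 0.06, Stmn2 at 0.16 and Gap43 at 0.07. Leaving out sham replicate 1 as well moved none of the 9 values by more than 0.01.

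NYKD against sham asks what remained different from surgery alone. Tubb3 was the 1 of 9 genes called, at -0.77 ± 0.25 (log2, SE; adjusted p = 0.0359), against 8.08% of all genes lowered, 15.3% raised and 23.4% called in either direction. At an unadjusted p under 0.05 there were 2, against 36.7% of all genes. In 0 of 9 did the groups not overlap, against 4.84% of all genes wholly lower and 13.9% wholly higher. Tubb3 means were 243 ± 65.2 CPM in NYKD and 413 ± 87.3 in sham, and the groups overlapped only through NYKD replicate 1, which lay above the lowest sham library. The call was lost without sham replicate 1 (adjusted p = 0.0905), sham replicate 2 (0.0556), sham replicate 3 (0.0734), NYKD replicate 2 (0.0905), NYKD replicate 3 (0.0933), NYKD replicate 4 (0.0562) or NYKD replicate 5 (0.0527), with no count filter (0.0533) and without sham replicate 1 and ICH replicate 4 together (0.0632). A fit with the replicate number as a block also lost it (0.0733). Nefl differed by -0.62 ± 0.29 (0.136), Nefm by -0.43 ± 0.27 (0.256), Nefh by -0.39 ± 0.33 (0.417) and Ina by -0.26 ± 0.20 (0.363). Mapt was at -0.20 ± 0.16 (0.381), Gap43 at -0.14 ± 0.22 (0.666), Stmn2 at -0.12 ± 0.30 (0.809) and Map2 at 0.06 ± 0.23 (0.868). The median was -0.26, beside -0.02 for all genes, with 8 of 9 below 0. Without sham replicate 1 the median was -0.13. Nefl passed with limma-voom quality weights (adjusted p = 0.00991) and with only these groups in the fit (0.0305), and Nefm with the quality weights (0.0341).

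Ratios of 2 genes within a library do not depend on library scaling. The Ina to Nefl count ratio was 0.584, 0.618, 0.622, 0.6303 and 0.575 in sham, 0.647, 0.735, 0.5397, 0.938 and 0.953 in ICH, and 0.792, 0.858, 0.755, 0.682 and 0.863 in NYKD. Every NYKD library lay above every sham library, a difference in group means of 0.38 on the log2 scale, 1.3-fold, with p = 0.00794 by the two-sided exact permutation test, the smallest 5 against 5 allows, and 0.143 after adjustment over the 18 tests. The Stmn2 to Nefl ratio was 0.701, 0.502, 0.561, 0.633 and 0.608 in sham and 0.837, 1.17, 0.661, 1.27 and 0.928 in ICH, higher by 0.67 (log2; exact permutation p = 0.0159, adjusted 0.143). ICH replicate 3 overlapped sham. For Gap43 to Nefl the values were 0.683, 0.581, 0.758, 0.905 and 0.687 in sham and 0.746, 1.70, 0.737, 2.29 and 1.39 in ICH, and the difference of 0.80 had an exact p of 0.0635 and an adjusted p of 0.229. None of the 18 tests passed after adjustment, and a lone ratio at the smallest possible p could not have passed. A difference in response between the growth-related genes and Nefl was therefore not shown, nor that they responded alike.

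**Figure D3:**
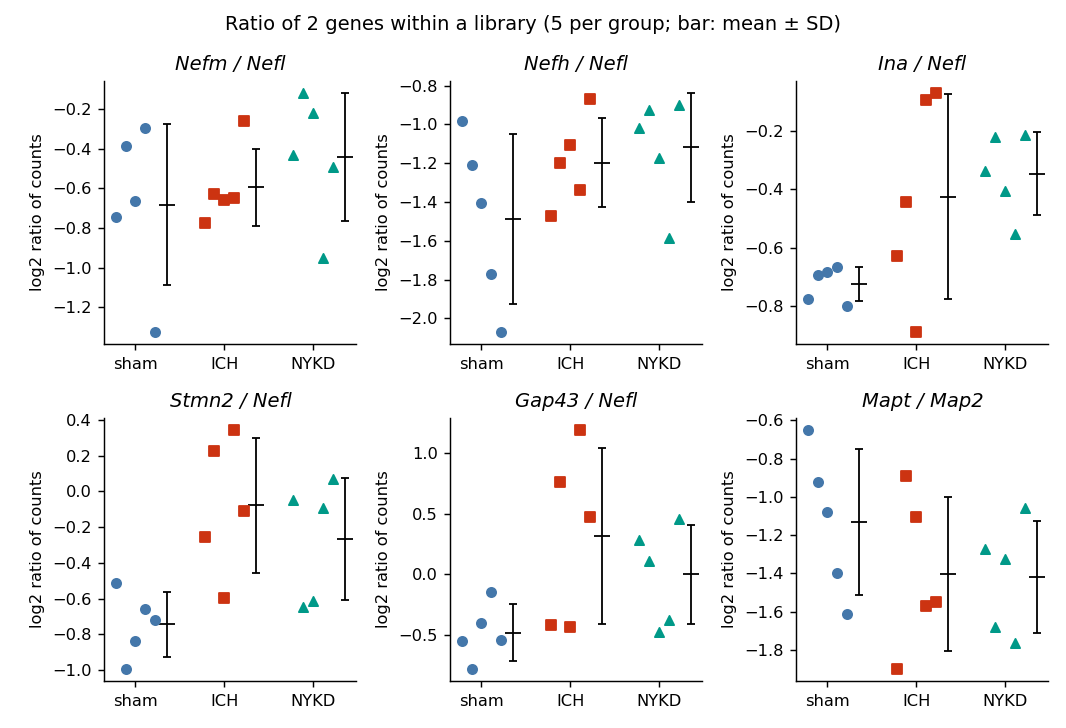
Log2 ratio of counts of 2 genes within each library, with 5 points per group in replicate order and a bar for the mean ± SD. The sham points of Ina to Nefl are tightly grouped below all NYKD points, and the ICH points of Gap43 to Nefl spread over the widest range.

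Of 17 other tubulins, microtubule-associated proteins and stathmins, 5 fell and 1, Tubb2b, rose after ICH (median -0.45, and -0.30 without either sham replicate 1 or ICH replicate 4), beside 4.58% lowered and 12.4% raised of all genes. Tuba4a, an alpha-tubulin, fell by 1.25 ± 0.21 (log2, SE; adjusted p = 0.000851) and Map1a, a microtubule-associated protein of mature neurons, by 0.91 ± 0.20 (0.00520). Tubb2b, chosen for mention after its value was seen, lost its call in 12 of 15 omissions, all but those of sham replicate 5, ICH replicate 1 and NYKD replicate 2. Among 12 motors of axonal transport, 6 fell and 0 rose (median -0.46). The number was 3 without sham replicate 4 or without ICH replicate 3. Klc2, a kinesin light chain, fell by 0.80 ± 0.15 (0.00167), and Kif5a, the kinesin heavy chain of neurons, by 1.11 ± 0.23 (0.00309), from a mean of 3199 to 1482 CPM.

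Of 11 genes of the spectrin and ankyrin membrane skeleton, 2 fell, beside 4.58% of all genes lowered. Cntnap1 (Caspr), of the paranodal junction, fell by 1.00 ± 0.22 (adjusted p = 0.00503), and Ank3 (ankyrin-G), the organiser of the axon initial segment, by 0.57 ± 0.16 (0.0216), a call lost without sham replicate 4 or ICH replicate 2. The count ran from 1 without either of those 2 libraries to 4 without ICH replicate 1. Of 13 growth cone and axon injury genes, 4 rose, 0 fell and 9 did not pass, beside 12.4% of all genes raised. The raised count was 2 without sham replicate 3, sham replicate 5 or ICH replicate 3. The 4 were Jun, Klf6, Sprr1a and Gadd45a, all injury response genes, the last 2 named after their values were seen. The 9 that did not pass, also named afterwards, went both ways. Growth cone genes Basp1 (log2 change -0.26), Crmp1 (-0.41), Dpysl2 (-0.43) and Dpysl5 (-0.55) were below 0 (adjusted p from 0.121 to 0.389). Marcksl1 (0.52), Marcks (0.47), Dpysl3 (0.47), Sox11 (0.35) and Atf3 (1.55) were above 0 (adjusted p from 0.0829 to 0.305). Jun and Klf6, transcription factors induced in injured neurons and in other cells, rose by 0.93 ± 0.15 (0.000673) and 0.88 ± 0.16 (0.00112). Of 7 intermediate filaments of other cell types, 4 rose, beside the same 12.4% of all genes. Vimentin (Vim) was up 3.18 ± 0.33 (2.88e-05) and nestin (Nes) 2.33 ± 0.25 (3.47e-05).

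NYKD against ICH held 1 called gene in these lists, beside 1.19% of all genes raised and 2.27% lowered. That gene, Map1a, was higher by 0.82 ± 0.20 (adjusted p = 0.0399), with means of 1157 CPM in sham, 615 in ICH and 1087 in NYKD. That call was kept in 4 of the 15 single-library omissions, those of sham replicates 1, 4 and 5 and ICH replicate 1. Without ICH replicate 1, 5 motors and 3 membrane skeleton genes were also called as raised, while the raised genes among all tested went from 215 to 725. The counts were 3 and 1 without sham replicate 5, and 1 and 0 without sham replicate 4. Each of the other single-library omissions gave 0 in both lists. Against sham, where 8.08% of all genes were lowered and 15.3% raised, NYKD libraries had 2 of 17 tubulin and microtubule genes lowered, Tuba4a with a log2 change of -0.82 ± 0.21 (0.00995) and Stmn3, a neuronal stathmin, with -0.93 ± 0.25 (0.0119), and 1, Tubb2b, raised, which 9 of 15 omissions kept. Klc2 was at -0.64 ± 0.15 (0.00543) and Klc1 at -0.49 ± 0.15 (0.0244) among 2 of 12 motors lowered, the Klc1 call being lost without sham replicate 1, sham replicate 3, NYKD replicate 2, NYKD replicate 3 or NYKD replicate 5. In the membrane skeleton Dst was raised (0.47 ± 0.15, 0.0302) and Sptbn4 lowered (-0.96 ± 0.34, 0.0487), and these held in 9 and 5 of 15 omissions. The Dst call was lost without sham replicate 1, 3 or 5 or NYKD replicate 1, 2 or 5, and the Sptbn4 call was kept without sham replicate 1 or 5 or ICH replicate 1, 3 or 4. Growth and injury genes were raised in 5 of 13 (3 without sham replicate 3 or 4) and other intermediate filaments in 4 of 7. Jun (1.14 ± 0.15, 6.80e-05), Klf6 (1.03 ± 0.16, 0.000198), Nes (2.59 ± 0.25, 7.30e-06) and Vim (2.94 ± 0.33, 1.70e-05) were higher than in sham.

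Some lists of other markers shared their extreme libraries with the neurofilament genes. The library that was highest for Nefl, Nefm and Nefh, sham replicate 1, was also highest for the thalamic, pallidal and oligodendrocyte lists. The lowest, ICH replicate 4, was lowest for these. ICH replicate 4 was also lowest for the astrocyte (8.23, mean log2 CPM), microglia (5.92) and other tubulin and microtubule (7.49) lists, for which sham replicate 1 was not the highest. Summed over 4 markers of pallidal neurons and fast-spiking interneurons, CPM ran from 264 to 528 in sham, 102 to 233 in ICH and 198 to 327 in NYKD. Of those 4, 2 fell after ICH (4 without sham replicate 4 or 5), beside 4.58% of all genes lowered. Kcnc1, a potassium channel of fast-spiking neurons, fell by 0.79 ± 0.20 (adjusted p = 0.0101) and Pvalb was at -1.46 ± 0.52 (0.0644). Summed CPM of 6 thalamic markers was 154 to 1002 in sham, 113 to 595 in ICH and 396 to 562 in NYKD, with 0 called; Slc17a6 was at -0.96 ± 0.62 (0.313) and Prkcd at -0.22 ± 0.45 (0.780). Summed CPM of 7 oligodendrocyte markers was 10420 to 20430 in sham, 3744 to 14700 in ICH and 8331 to 13210 in NYKD, with 2 lowered (4 without ICH replicate 2). Mbp was at -0.70 ± 0.32 (0.143). No marker of these 3 lists was at 0 in any library.

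Of 10 pan-neuronal genes, 5 fell after ICH (median -0.66), beside 4.58% of all genes lowered. The count was 2 to 7 with single libraries left out. It was 2 without sham replicate 2, sham replicate 3, ICH replicate 1 or ICH replicate 3, and 3 without sham replicate 5 or NYKD replicate 1. Rbfox3 (NeuN) was at -0.68 ± 0.35 (adjusted p = 0.202) and Snap25 at -0.64 ± 0.22 (0.0603). Their summed CPM was 5031 to 6717 in sham, 2986 to 4125 in ICH and 2718 to 5905 in NYKD. Set against the pan-neuronal mean of each library, as a description, the ICH minus sham difference was -0.40 (log2) for Nefl, -0.32 for Nefm and -0.31 for Tubb3, within SDs among ICH libraries of 0.91, 0.85 and 0.61. These rested on ICH replicate 4: without it they were -0.10, 0.0021 and -0.14, and without sham replicate 1 as well 0.01, 0.10 and -0.04. Nefh, Ina and Mapt were at -0.11, -0.10 and -0.03, and each was above 0 without ICH replicate 4 (0.23, 0.12 and 0.11). Map2 was at 0.24, Stmn2 at 0.26 and Gap43 at 0.39, with SDs among ICH libraries of 0.39, 0.65 and 0.48. Without ICH replicate 4 these 3 genes were at 0.34, 0.46 and 0.48, and without sham replicate 1 as well at 0.24, 0.63 and 0.57. Of 9 striatal markers, 0 were called after ICH (median -1.05) and 6 were lower in NYKD than sham, beside 8.08% of all genes lowered there. In NYKD against sham Ppp1r1b (DARPP-32) was at -2.43 ± 0.82 (0.0434) and Drd1 at -2.19 ± 0.85 (0.0766). The count of 6 was 3 without any one of sham replicates 2 to 5 or NYKD replicates 1, 4 and 5. In NYKD against ICH all 9 were below 0 (median -1.09), with 0 called. Cortical (0 of 5) and choroid plexus markers (0 of 5) were not called after ICH: Slc17a7 was at -0.79 ± 0.90 (0.587), Tbr1 at -1.01 ± 0.87 (0.458), Ttr at 0.60 ± 1.48 (0.821) and Kl at 0.02 ± 1.14 (0.994).

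Of non-neuronal markers, 3 of 5 microglial and 1 of 6 astrocyte genes rose after ICH, beside 12.4% of all genes raised. Of 6 neutrophil genes 4 passed the filter on low counts, and all 4 rose. Cxcr2, with a sham mean of 0.034 CPM, passed that filter through the other groups. Of the 6 astrocyte genes 1 fell, beside 4.58% of all genes lowered. The astrocyte count was 3 raised without ICH replicate 4 and 2 without sham replicate 1 or ICH replicate 5, and 0 lowered without sham replicate 1, 2, 3 or 5 or ICH replicate 3 or 4. Tmem119 was at 0.29 ± 0.24 (adjusted p = 0.438) and P2ry12 at 0.14 ± 0.29 (0.789), Aqp4 at 1.00 ± 0.37 (0.0729) and Aldh1l1 at 0.89 ± 0.17 (0.00216). S100a8 rose by 5.52 ± 1.46 (0.0182) and S100a9 by 5.50 ± 1.48 (0.0199), with ICH replicate 4 at a neutrophil list mean of 5.90 (log2 CPM) against 0.22 to 1.24 in the other ICH libraries; without it 2 of 4 were called, and S100a8 was at 1.14 (0.152) and S100a9 at 0.76 (0.244). No gene of the 10 marker lists was called in NYKD against ICH. Against sham, NYKD libraries had 2 of 10 pan-neuronal (0 to 4 with single libraries left out), 0 of 6 thalamic, 1 of 4 pallidal and 1 of 7 oligodendrocyte markers lowered, beside 8.08% of all genes. The pallidal count was 2 without sham replicate 4 or 5, ICH replicate 4 or NYKD replicate 1, and the oligodendrocyte count 3 without ICH replicate 4. Raised were 4 of 5 microglial, 3 of 6 astrocyte and 2 of 4 neutrophil markers (4 without ICH replicate 4), beside 15.3% of all genes. The part of tissue composition in the results on the 9 genes was not tested.

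**Figure D4:**
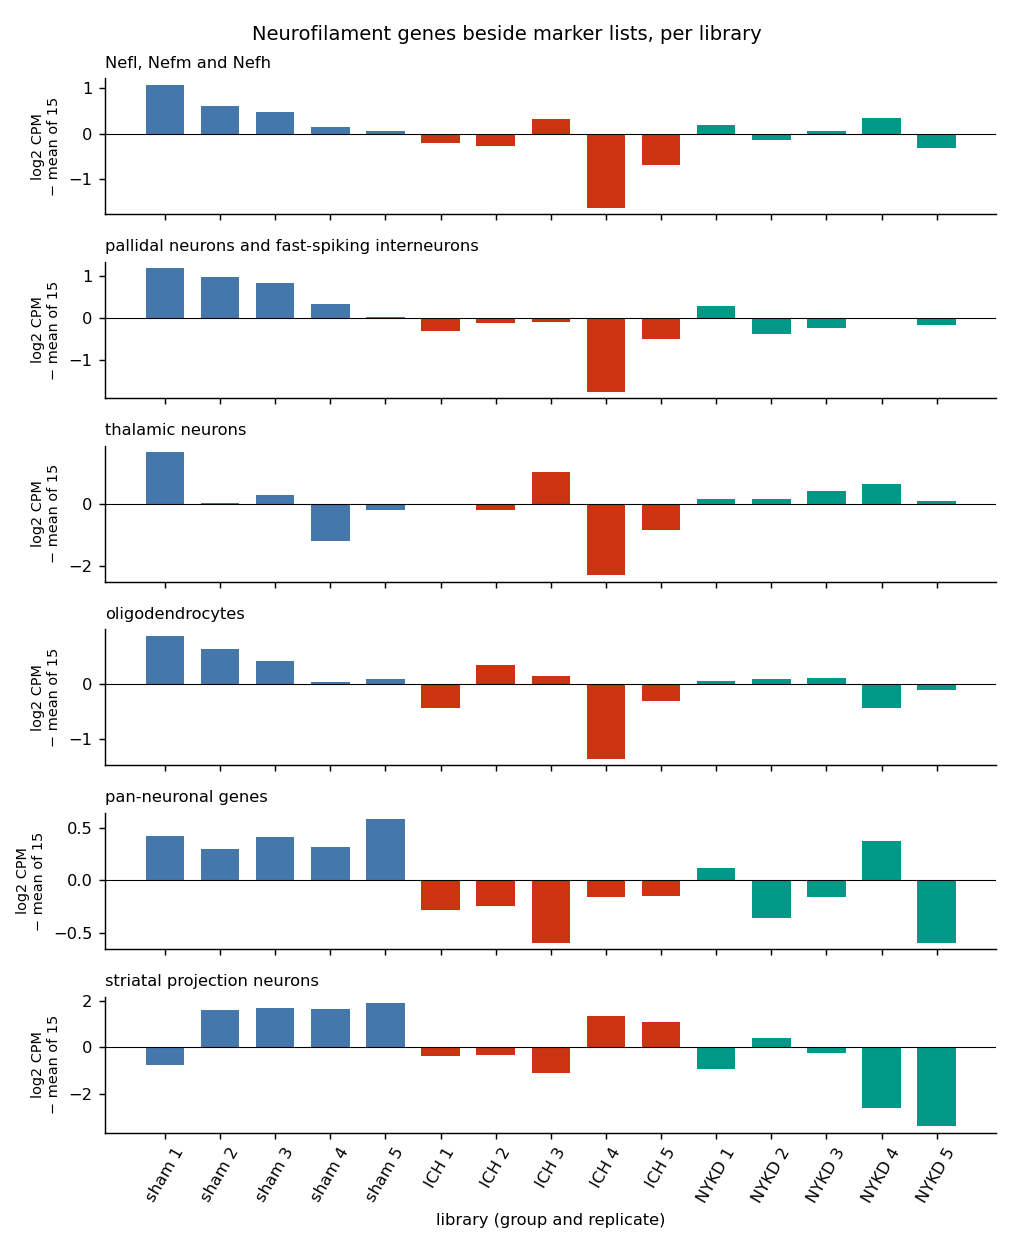
Mean log2 CPM of Nefl, Nefm and Nefh and of 5 marker lists in each library, minus the mean over the 15 libraries. Sham replicate 1 is highest and ICH replicate 4 lowest for the neurofilament, thalamic, pallidal and oligodendrocyte panels, but not for the pan-neuronal and striatal panels.

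Across libraries, the SD of log2 CPM was largest for Nefl (0.67), Nefh (0.66) and Nefm (0.63) and smallest for Mapt (0.38) and Gap43 (0.35). The root mean square difference from the centred mean profile of Nefl, Nefm and Nefh was 0.22 for Ina, 0.40 for Mapt, 0.42 for Stmn2, 0.45 for Tubb3, 0.53 for Gap43 and 0.63 for Map2. Among 12929 other genes, the 5 nearest to that profile over the 15 libraries were Mcf2 (0.18), Vamp1 (0.22), Gpr37 (0.23), Klhl4 (0.23) and Tspan2 (0.24). Vamp1 is a synaptic vesicle protein, Mcf2 a guanine nucleotide exchange factor, and Gpr37 and Tspan2 are expressed in oligodendrocytes.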

How the data were processed

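RNA was measured in 15 libraries, 5 per group, taken from the sample titles. The authors deposited raw counts per Ensembl gene. The submitters' processing notes name HISAT2 2.0.5, edgeR 3.22.5 and mm10 but give them no role; the counting program, annotation release and strandedness were not given in the sources used here. Symbols, coordinates and lengths came from GENCODE M21, matched by gene ID for 54495 of 54532 genes; 37 had none.

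Of 54532 genes, 18725 had no count; filterByExpr left 18052. One edgeR 4.0.16 quasi-likelihood model (robust, TMM, R 4.3.3) over all 15 libraries gave 3 comparisons, with Benjamini-Hochberg adjustment over all tested genes and calls at an adjusted p under 0.05. The SE, the size of a log2 fold change divided by the root of its F statistic, is approximate. No pair of libraries agreed within counting noise. Ratios used counts plus 0.5 and two-sided exact permutation tests, adjusted over 18. Named genes were all 9, the 2 called genes of smallest p per other cytoskeleton list and comparison, the first 2 of each marker list, and the 5 nearest in profile; 1 of these genes is not reported here. The members and lists were chosen with earlier results of these data known. Other settings were RLE and total scaling, no filter, DESeq2 1.42.0, limma-voom 3.58.1 with and without quality weights, 2 groups only, a replicate block, and leaving out each library. The calling was tested on simulated data.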

Additional observations from a re-analysis of the deposited data

Results flagged for a closer look

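Of 45 groups of 5 libraries examined, 3 held a library whose gap to its neighbour took up more than 0.71 of the group's range; chance gives about 1 in 20. Stmn2 in sham replicate 1 stood at 317 CPM (gap over range 0.754). Gap43 in ICH replicate 2 stood at 307 CPM (0.713). The log2 ratio of Nefm to Nefl in ICH replicate 5 was -0.26 (0.715).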

How the results depend on the processing

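Of the 9 genes, the number called in ICH against sham (5) was 3 with the 2 groups only, 2 without ICH replicate 4 and sham replicate 1 together, and 3 to 6 with single libraries left out. In NYKD against ICH (0) it was 1 with DESeq2 and 0 with any single library left out. In NYKD against sham (1) it was 0 with no filter, 3 with voom quality weights, 2 with the 2 groups only, 0 with the replicate block, 0 without both libraries, and 0 to 1 with single libraries left out. Over all genes, the 3062 of ICH against sham ran from 2127 to 3270 with single libraries left out, and the replicate block gave 2255. The 625 of NYKD against ICH became 1734 with DESeq2, 387 with voom, 1343 with voom quality weights, 0 with the replicate block (3602 at an unadjusted p under 0.05), 0 without both libraries (3519), and 0 (without ICH replicate 5, NYKD replicate 1, 3 or 5) to 1508 (without ICH replicate 1) with single libraries left out. The 4225 of NYKD against sham became 8167 with voom quality weights and 2810 (without NYKD replicate 5) to 4784 with single libraries left out; the replicate block gave 3278. No ratio within a library passed under any setting, but these tests had little room to pass. The exact permutation test of 5 against 5 cannot give p below 0.00794, which became 0.143 after adjustment for Ina to Nefl. With 4 against 5 libraries the limit was 0.0159, and with sign flips 0.0625. The raised share of calls in ICH against sham was 73.0% with TMM, 64.2% with RLE and 83.4% with library totals, and in NYKD against ICH 34.4%, 41.3% and 20.1%; library totals moved the all-gene median from 0.05 to 0.14 in the first. Same-numbered libraries correlated at -0.31 to 0.24 in their deviations from group means, so no pairing of mice by number was seen. Low correlations cannot exclude a pairing. The cause of these differences was not tested.

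Values that changed sign were these. The Map2 log2 change in NYKD against sham was -0.0143 without sham replicate 1, -0.011 without sham replicate 2, -0.0151 without both libraries, and -0.0557 to 0.1645 over single libraries left out. The Stmn2 change there was 0.1111 without sham replicate 1, 0.0328 without NYKD replicate 2, 0.1102 without both, and -0.3607 to 0.1111 in all. The Nefm to Nefl ratio in ICH against sham ran from -0.072 (without sham replicate 5) to 0.1862, Ina to Nefl in NYKD against ICH from -0.0369 (without ICH replicate 3) to 0.1683, and Mapt to Map2 there from -0.1416 to 0.1108, above 0 without ICH replicate 2 or 3 or NYKD replicate 2 or 4. None of these passed a test in either direction.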
